A study of Homo sapiens with 6 samples.

Results

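The mitotic kinases of the spindle and the checkpoint were examined after knockdown of C1GALT1 in AGS, a cell line from a human gastric adenocarcinoma. C1GALT1 is the galactosyltransferase that extends the first sugar of mucin-type O-glycans. The set held 10 genes, AURKA, AURKB, PLK1, PLK4, BUB1, BUB1B, TTK, NEK2, MASTL and VRK1, chosen by name from 22439 gene symbols on the array. A probe was assigned to a gene when the RefSeq accession printed for it on the array belonged to that gene. By this rule 9 of the 10 genes had a probe and NEK2 had 2 of them, so 10 probes were read. No probe was matched to PLK1, which is not analysed here.

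AGS cells were transfected either with si-C1GALT1-3, a siRNA against C1GALT1, or with a siRNA without a target (si-Control), and RNA was taken 48 h later. Each group had 3 samples, each hybridized to its own single-colour Agilent array. All of the knockdown samples carried the same siRNA sequence in the same cell line, so its effects on C1GALT1 and on other transcripts cannot be told apart. The labels do not say whether the samples were separate cultures, and p-values then measure only the spread between these samples. Samples with the same replicate number shared a slide, with si-Control and si-C1GALT1-3 always in the same places, so place and treatment cannot be told apart. On the array of si-Control replicate 2 a central region had low signals. Its spots were left out of that array, which removed the si-Control replicate 2 value of PLK4, BUB1B and MASTL. Between 67.5% and 72.7% of the remaining gene spots exceeded background clearly on each array, by the scanner software's own criterion (called well above background here), and the number of arrays limits the precision. All 6 epithelial markers examined (EPCAM, KRT8, KRT18, KRT19, CLDN4 and CLDN7) were well above background on every array. Of 11 markers of leukocytes, endothelium and fibroblasts, 8 were also well above background on every array that measured them, including the leukocyte gene PTPRC, while the fibroblast gene COL1A2 was so on no array. The summed signal of the 4 leukocyte markers was 12945 to 21342 on si-Control arrays and 12534 to 13925 on si-C1GALT1-3 arrays, and most of it was PTPRC. The 2 fibroblast markers measured on every array summed to 307 to 929 on si-Control arrays and 858 to 1494 on si-C1GALT1-3 arrays. Most of that sum was COL3A1, with a log2 fold change of 1.17. The other 3 fibroblast markers had values below 0, and PDGFRB, with the highest signals, had -0.81 on 2 control arrays. The 2 endothelial markers measured on every array summed to 173 to 301 and 148 to 191. No marker passed the threshold used below, and the part of these markers in the results was not tested.

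Cells make most of these kinases shortly before they divide, so most of their transcripts are more abundant in cells that are in or near mitosis. Several of the proteins are destroyed as division ends. AURKA builds the spindle poles, and AURKB works at centromeres and the midzone as part of the chromosomal passenger complex. BUB1, BUB1B and TTK act at kinetochores in the spindle checkpoint, which delays anaphase until every chromosome is attached. NEK2 separates the centrosomes, PLK4 starts the duplication of centrioles, MASTL (Greatwall) holds back a phosphatase that opposes mitotic phosphorylation, and VRK1 phosphorylates chromatin proteins and the factor that ties the nuclear envelope to DNA.

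All 9 measured kinases had a lower fitted level in si-C1GALT1-3 cells, with log2 fold changes from -1.48 for VRK1 to -0.49 for MASTL, where 50.9% of all probes had a value below 0. Their median was -1.02, against -0.0048 for all 58195 probes tested. VRK1, BUB1, TTK and AURKB fell by at least 2-fold with an unadjusted p under 0.01 in limma. AURKA, NEK2, PLK4, BUB1B and MASTL did not pass. The share of all probes that were lower past this threshold was 0.991%, and it was 1.19% among the 38655 probes well above background on all measured arrays of at least 1 group. With Benjamini-Hochberg adjustment across the whole table, no kinase reached an adjusted p under 0.05 in limma, while 8 of the 9 had an unadjusted p under 0.05, as did 6.43% of all probes in the lower direction. The smallest adjusted p was 0.0849, for TTK, and 49 of all probes, or 0.0842%, passed. With any 1 of the 6 arrays left out, and with the slide as a block, no probe did. Fewer mitotic cells and less of these transcripts per mitotic cell cannot be told apart in RNA from whole cultures. From flow cytometry of DNA content the study reports G1 arrest in AGS cells with the same siRNA. The part of that arrest in these values was not tested.

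**Figure D1:**
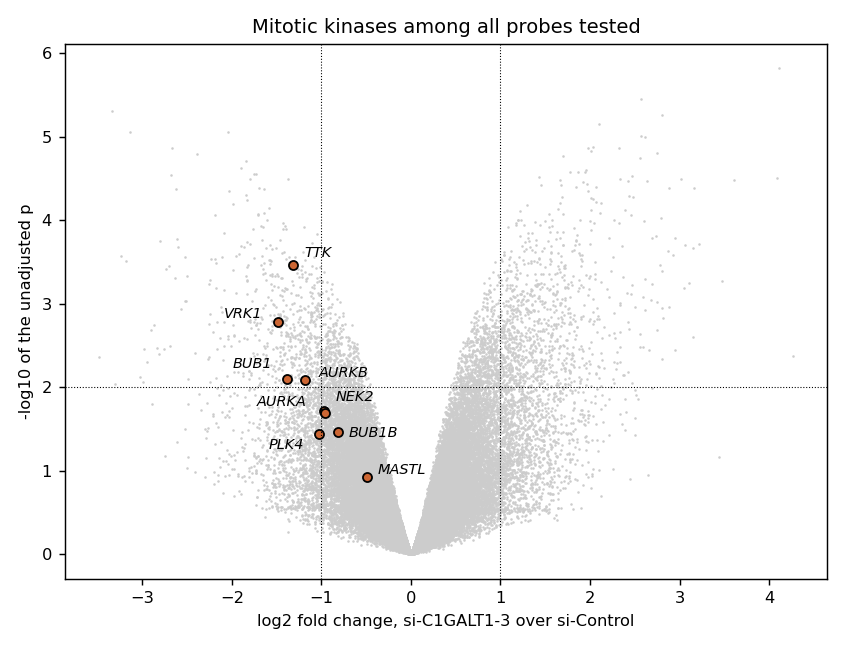
Each grey point is a probe, placed by its log2 fold change (si-C1GALT1-3 over si-Control, x axis) and by -log10 of its unadjusted p from limma (y axis), and the filled points are the 9 kinases. Dotted lines mark 2-fold and a p of 0.01. TTK, VRK1, BUB1 and AURKB lie beyond both lines and the other kinases do not.

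C1GALT1, the targeted gene, had normalized log2 signals of 12.22, 13.03 and 12.62 on si-Control arrays 1, 2 and 3, and of 11.76, 11.98 and 11.13 on si-C1GALT1-3 arrays 1, 2 and 3. Every knockdown array lay below every control array. The fitted log2 fold change was -1.0003 ± 0.31 (standard error, n = 3 per group), with an adjusted p of 0.265 in limma, and it did not pass a p under 0.01.

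Among the kinases of the checkpoint, TTK (Mps1), which recruits the other checkpoint proteins to unattached kinetochores, had the smallest p. Its normalized log2 signals were 10.23, 10.63 and 10.49 in si-Control samples 1, 2 and 3 and 9.19, 9.27 and 8.94 in si-C1GALT1-3 samples 1, 2 and 3. The groups lay apart by more than the spread within either of them. The means were 10.45 ± 0.21 and 9.14 ± 0.17 (SD, n = 3 each), which is 2.49-fold lower. Limma fitted a log2 fold change of -1.31 ± 0.17 (standard error) for TTK, with an adjusted p of 0.0849. TTK passed p under 0.01 and 2-fold with any of the 6 arrays left out.

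BUB1, which marks centromeric chromatin for cohesin protection and scaffolds the checkpoint, had log2 signals of 10.77, 11.58 and 11.25 in si-Control samples and 10.25, 9.99 and 9.20 in si-C1GALT1-3 samples 1, 2 and 3. The groups did not overlap, although si-Control replicate 1 and si-C1GALT1-3 replicate 1 differed by only 0.52. The fitted log2 fold change was -1.39 ± 0.35 (standard error), with an adjusted p of 0.199 in limma. BUB1 missed p under 0.01 when si-Control replicate 2 or 3 was left out, with log2 fold changes of -1.20 and -1.37. The same held when si-C1GALT1-3 replicate 2 or 3 was left out, with -1.48 and -1.08.

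BUB1B encodes BubR1, a subunit of the complex that inhibits the anaphase-promoting complex. Its log2 signals were 11.23 and 11.62 in si-Control samples 1 and 3, and 10.86, 10.75 and 10.21 in si-C1GALT1-3 samples 1, 2 and 3. With 2 control values the fitted log2 fold change was -0.81 ± 0.28 (standard error), with an adjusted p of 0.318 in limma. BUB1B was short of 2-fold and of p under 0.01.

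Of the Aurora kinases, AURKB had log2 signals of 12.24, 12.49 and 12.33 in si-Control samples 1, 2 and 3, which lay close together. In si-C1GALT1-3 samples 1, 2 and 3 it had 11.57, 11.40 and 10.53, all below the controls and with si-C1GALT1-3 replicate 3 the lowest. Its fitted log2 fold change was -1.19 ± 0.30 (standard error), with an adjusted p of 0.201 in limma. This call was close to the threshold. AURKB passed without si-C1GALT1-3 replicate 1 and in none of the other 5 fits that left out an array. Without si-C1GALT1-3 replicate 3 its log2 fold change was -0.87, short of 2-fold, and without si-C1GALT1-3 replicate 2, si-Control replicate 1, 2 or 3 it was -1.31, -1.24, -1.12 and -1.20.

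AURKA had log2 signals of 12.25, 13.20 and 13.16 in si-Control samples 1, 2 and 3 and of 12.06, 12.00 and 11.68 in si-C1GALT1-3 samples 1, 2 and 3. The groups were separated by 0.19, and si-Control replicate 1 lay well below the other control samples. Limma fitted a log2 fold change of -0.96 ± 0.30 (standard error), with an adjusted p of 0.269, and AURKA did not pass. Leaving out si-Control replicate 1 gave -1.27, which passed p under 0.01 and 2-fold.

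VRK1 had the lowest fitted log2 fold change of the 9 kinases. Its log2 signals were 10.13, 10.31 and 10.13 in si-Control samples 1, 2 and 3 and 9.09, 8.87 and 8.16 in si-C1GALT1-3 samples 1, 2 and 3. The control samples lay close together, and each knockdown sample lay at least 1.04 below all of them. The fitted log2 fold change was -1.48 ± 0.27 (standard error), or 2.79-fold lower, with an adjusted p of 0.126 in limma. VRK1 also passed with any of the 6 arrays left out.

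The centrosome kinase NEK2 was read by 2 probes. The brighter of them had log2 signals of 12.74, 12.93 and 12.37 in si-Control samples 1, 2 and 3 and of 12.22, 11.69 and 11.22 in si-C1GALT1-3 samples 1, 2 and 3. The groups did not overlap. Its fitted log2 fold change was -0.97 ± 0.30 (standard error), with an adjusted p of 0.265 in limma. It was -1.22, past the threshold, without si-C1GALT1-3 replicate 1. The other NEK2 probe had -1.35 (standard error 0.37, adjusted p = 0.229 in limma) and missed p under 0.01 too.

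PLK4, the kinase that starts centriole duplication, had log2 signals of 8.94 and 9.66 in si-Control samples 1 and 3 and 8.61, 8.41 and 7.81 in si-C1GALT1-3 samples 1, 2 and 3. Its fitted log2 fold change was -1.02 ± 0.35 (standard error), with an adjusted p of 0.325 in limma. This was 2.03-fold lower but short of p under 0.01. MASTL had the value nearest to 0. Its log2 signals were 11.39 and 11.79 in si-Control samples 1 and 3 and 11.30, 11.25 and 10.75 in si-C1GALT1-3 samples 1, 2 and 3. The fitted log2 fold change was -0.49 ± 0.26 (standard error), with an adjusted p of 0.487 in limma. The 95% interval of the log2 fold change ran from -1.16 to 0.18, which held no change as well as a 2-fold fall.

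**Figure D2:**
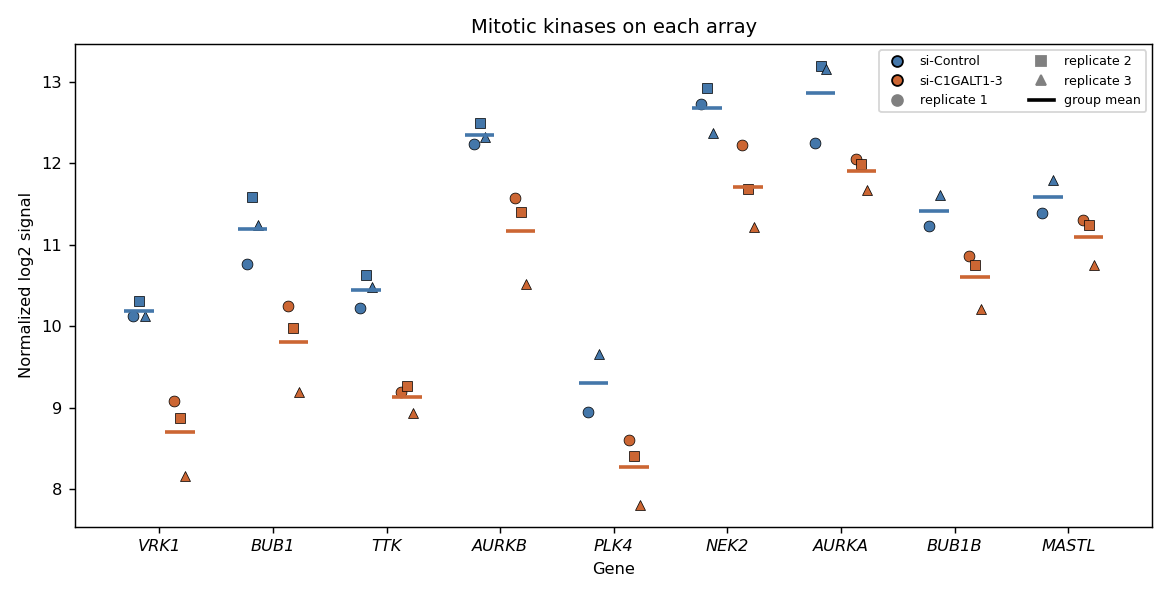
Normalized log2 signal (y axis) of the 9 kinases (x axis, ordered by log2 fold change) on each array, with si-Control in blue, si-C1GALT1-3 in orange, symbols by replicate number and a bar at each group mean. Signals of different probes are not comparable in height. Within each gene all orange points lie below all blue points, and the si-C1GALT1-3 replicate 3 point is the lowest of each gene.

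In all 9 kinases every si-C1GALT1-3 array lay below every measured si-Control array, a pattern found in 10.4% of all probes and in 12.4% of those well above background. For PLK4, BUB1B and MASTL this rests on 2 control values. The lowest value of each of the 9 was that of si-C1GALT1-3 replicate 3. Their 95% intervals overlapped, and differences between kinases were not tested.

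The differences were not equally large on the 3 slides. Because the groups did not overlap, the 24 differences that could be formed within a slide were all below 0 by construction. In each of the 6 kinases with values on all slides the smallest difference was that of replicate 1, as in AURKA, with -0.19 on that slide, -1.20 on that of replicate 2 and -1.48 on that of replicate 3. In 5 of the 6 the largest was that of replicate 3, and NEK2, with -0.51, -1.24 and -1.15, was the exception. BUB1 had -0.52, -1.60 and -2.05, and VRK1 had -1.04, -1.44 and -1.97. PLK4, BUB1B and MASTL had -0.34, -0.37 and -0.08 on the slide of replicate 1 and -1.85, -1.41 and -1.04 on that of replicate 3. C1GALT1 itself had -0.47, -1.05 and -1.49 on the slides of replicates 1, 2 and 3. Of 8 reference genes listed further below, all but ACTB also had a lower difference for replicate 3 than for replicate 1. GAPDH had 0.50, 0.17 and -0.37 on the slides of replicates 1, 2 and 3, and PPIA had 0.40, -0.08 and -0.39. ACTB had -0.38, -0.13 and -0.19. The part of the slides in the kinase values was not tested. With 3 slides no relation between the extent of knockdown and the kinases can be tested.

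With the slide as a block, 2 of the 9 kinases passed p under 0.01 and 2-fold, TTK and VRK1, against 1.02% of all probes. AURKB and BUB1 did not pass with the block, at the same log2 fold changes as without it.

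**Figure D3:**
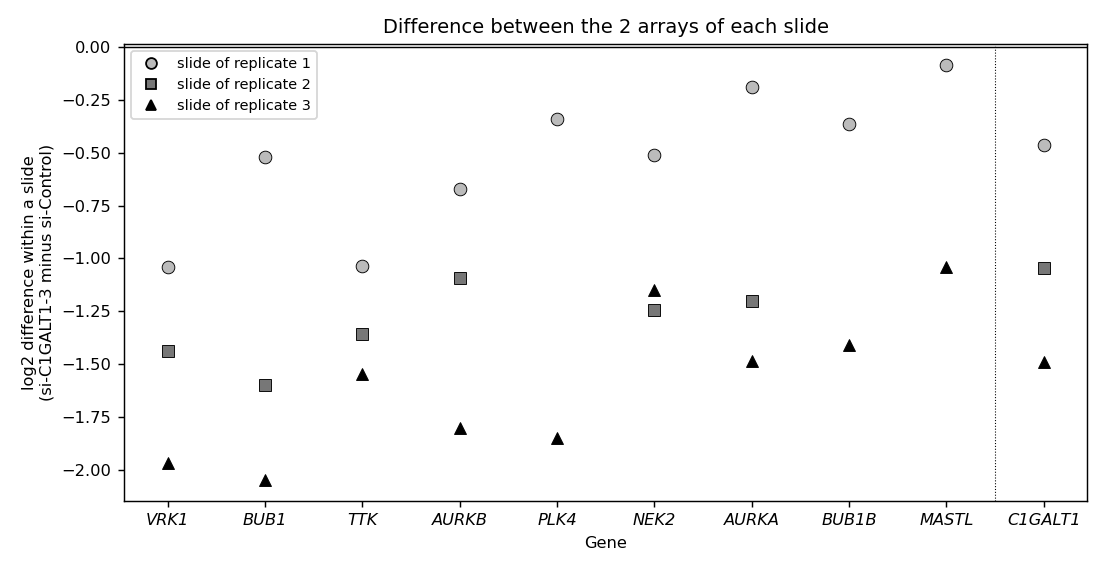
Log2 signal of the si-C1GALT1-3 array minus that of the si-Control array on the same slide (y axis), for each kinase and, right of the dotted line, for C1GALT1 (x axis). Symbols stand for the slides, and PLK4, BUB1B and MASTL have no value for replicate 2. All points lie below 0, and the slide of replicate 1 has the smallest difference for every gene shown.

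The direction of 3 kinases turned with the low-signal region. On si-Control replicate 2 the spot of PLK4 read a processed signal of 27.2, against 633 and 593 on the other control arrays. The spot of BUB1B read 49.4 there, against 2912 and 2444, and that of MASTL read 20.3, against 3253 and 2774. With these spots kept, the log2 fold changes were 0.27 (standard error 1.15) for PLK4, 0.93 (standard error 1.51) for BUB1B and 1.71 (standard error 1.89) for MASTL. The other 6 kinases lie outside the region and had -1.63 to -1.04 with it kept. BUB1 then had -1.50 and did not pass p under 0.01.

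**Figure D4:**
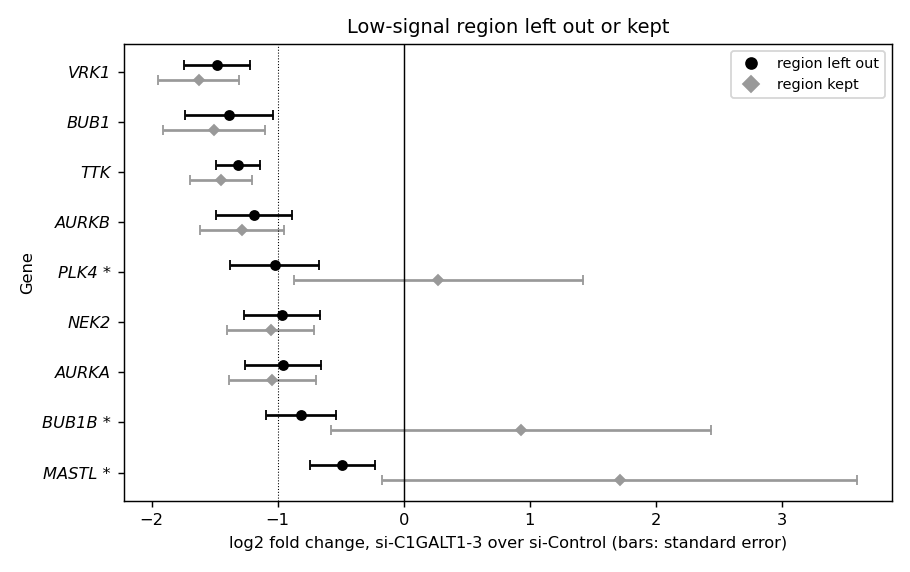
Log2 fold change with its standard error (x axis) for each kinase (y axis), with the low-signal region of si-Control replicate 2 left out (black circles) or kept (grey diamonds). Asterisks mark the 3 kinases whose spots lie in the region, and these have values above 0 only where it was kept.

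The study names PLK4, BUB1, AURKB, VRK1 and TTK among genes selected from these same arrays, so their lower values here are not independent evidence. Apart from the arrays, it reports that quantitative RT-PCR, with primers that include BUB1, bore out the differences of selected genes. These 5 had a median log2 fold change of -1.31, and 4 passed. The 4 measured kinases that it does not name (AURKA, BUB1B, NEK2 and MASTL) had a median of -0.89 and values from -0.97 to -0.49, and none passed p under 0.01 and 2-fold in limma's test.

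Promoters of many mitotic genes carry a CHR element near the start of transcription and CCAAT boxes upstream of it. The CHR is bound by the MuvB complex, which works with FOXM1 and MYBL2 in dividing cells and with repressors in resting ones, and CCAAT boxes are bound by NF-Y. RefSeq promoter windows (GRCh38.p14, 250 bases before the start and 50 from it on) were matched by symbol to 6 of the 9 kinases, namely AURKB, PLK4, BUB1, BUB1B, NEK2 and MASTL. The letters TTTGAA and TTCGAA for the CHR and CCAAT for the box were searched on both strands. Where a gene had several listed starts, only the one farthest upstream was searched. AURKB had 2 listed starts and PLK4 had 3, while the shares of all windows given below count every listed start. The stretches below run from 140 bases before the start to 10 bases from it on, 5′ to 3′ in the direction of the gene, with matches in capitals, and are shown because all of these kinases had lower values while their promoters differ in these letters.
BUB1 (chr2:110678054-110678203, reverse strand): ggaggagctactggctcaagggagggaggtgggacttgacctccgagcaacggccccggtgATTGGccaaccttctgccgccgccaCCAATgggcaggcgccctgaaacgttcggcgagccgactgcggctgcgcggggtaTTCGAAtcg
NEK2 (chr1:211675612-211675761, reverse strand): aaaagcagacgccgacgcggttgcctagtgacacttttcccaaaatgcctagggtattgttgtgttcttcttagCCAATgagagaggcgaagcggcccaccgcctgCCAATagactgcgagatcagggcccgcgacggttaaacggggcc
AURKB (chr17:8210240-8210389, reverse strand): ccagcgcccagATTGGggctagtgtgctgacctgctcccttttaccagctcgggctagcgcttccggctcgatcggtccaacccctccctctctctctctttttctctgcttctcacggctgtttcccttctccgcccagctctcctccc
BUB1B (chr15:40160929-40161078, forward strand): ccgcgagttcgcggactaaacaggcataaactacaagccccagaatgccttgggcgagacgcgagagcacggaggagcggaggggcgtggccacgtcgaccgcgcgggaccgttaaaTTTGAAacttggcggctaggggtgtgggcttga
MASTL (chr10:27155212-27155361, forward strand): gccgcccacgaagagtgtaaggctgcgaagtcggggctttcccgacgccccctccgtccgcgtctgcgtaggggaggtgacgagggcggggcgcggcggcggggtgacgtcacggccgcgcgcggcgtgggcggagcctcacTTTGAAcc

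CCAAT or its reverse complement ATTGG was found in 3 of the 6 windows, with 2 matches in BUB1 and 2 in NEK2 and 1 in AURKB, against 34.6% of all 35116 windows. TTTGAA or TTCAAA was found in 3 of the 6, with BUB1B shortly before its start, MASTL beside its start and again near the upstream end of the window, and PLK4 beyond it, against 15.2% of all windows. TTCGAA was found in BUB1, beside its start, against 1.45% of all windows. BUB1 had matches to both kinds of letters. In the windows searched, AURKB and NEK2 had CCAAT alone, and of these AURKB passed the threshold and NEK2 did not. BUB1B, MASTL and PLK4 had TTTGAA alone and did not pass. These 3 are also the kinases without a si-Control replicate 2 value, so letters and missing value cannot be told apart. PLK4, with -1.02, had a lower log2 fold change than NEK2, with -0.97. A match to such short letters is not a bound site, and these counts are a description of 6 windows.

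Genes that work with these kinases were read from 8 lists of 76 genes, chosen for their roles, of which 74 were measured. Lower past p under 0.01 and 2-fold were 15 of the 74, against 0.991% of all probes, and 1 was higher, against 1.65%. Of these 16 genes the study names 9 among genes selected from these arrays. Of the 64 measured genes that it does not name, 6 fell past the threshold, TPX2, PRC1, WEE1, PBK, MELK and FOXM1. Of the 16 genes, 11 also passed with the slide as a block and 5 did not, while 2 passed only with it. The genes of each list are given by their counts, and no test was made of a list.

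Of 8 partners and activators of the Aurora kinases all had values below 0, and 3 fell past the threshold, with a median log2 fold change of -0.91. BIRC5 (survivin) and CDCA8 (borealin), which bring AURKB to centromeres in the chromosomal passenger complex, fell by 1.58 (standard error 0.27) and 1.31 (standard error 0.24) on the log2 scale. TPX2, which activates AURKA on spindle microtubules, fell by 1.07 (standard error 0.21). INCENP, the scaffold of the same complex, had -0.60 and did not pass, and CEP192, which recruits AURKA to centrosomes, had -0.08 on 2 control arrays. With the slide as a block CDCA8 passed, and BIRC5 and TPX2 did not.

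Of 11 spindle checkpoint partners, 3 fell past the threshold, the median was -0.52, and 10 had values below 0. CDC20, the activator of the anaphase-promoting complex that the checkpoint inhibits, fell most, by 1.56 (standard error 0.25) on the log2 scale. MAD2L1, which binds CDC20 in the inhibited complex, fell by 1.14 (standard error 0.21), and KNL1, the kinetochore scaffold on which BUB1 and BUB1B assemble, by 1.15 (standard error 0.28). BUB3, the partner that both kinases bind, had -0.29, and MAD1L1, the binding platform of MAD2L1, had the highest value, 0.25.

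Of 9 other mitotic and checkpoint kinases all had values below 0, and 4 fell past the threshold, with a median of -1.08. PBK had the lowest value, -1.83 (standard error 0.36), followed among those that passed by CDK1, the master kinase of mitosis, with -1.26 (standard error 0.28). MELK fell by 1.24 (standard error 0.25) on the log2 scale. WEE1, which inhibits CDK1, fell by 1.08 (standard error 0.21), while PKMYT1, the other inhibitory kinase of CDK1, had -0.60 and did not pass. The DNA damage checkpoint kinases CHEK1 and CHEK2 had -0.39 and -0.42, and CHEK1 had the highest value of the list. Without si-Control replicate 2 none of the 9 passed, and 2 did when either replicate 3 array was left out. With the slide as a block CDK1 and MELK did not pass, WEE1 and PBK did, and CIT, a kinase of cytokinesis, passed with -1.31.

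Among 8 substrates and effectors, 2 fell past the threshold and the median was -0.63. PRC1, which bundles the microtubules of the central spindle, had -2.21 (standard error 0.42), and KIF2C, a microtubule depolymerase regulated by AURKB, had -1.47 (standard error 0.23). CROCC (rootletin) had the highest value, 0.13, and CEP250 had 0.05. Both belong to the linker between centrosomes that NEK2 phosphorylates. BANF1, the substrate of VRK1 that links DNA to the nuclear envelope, had -0.20. With the slide as a block PRC1 and KIF2C passed and so did NDC80, a kinetochore subunit, with -1.29 on 2 control arrays.

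None of the 6 measured partners of PLK4 in centriole duplication passed, with a median of -0.51 and values from -0.87 for CEP135 to 0.15 for CEP152. At an unadjusted p under 0.05 limma gave 2 of them, CEP135 and STIL, both lower, where 6.43% of all probes were. The MASTL pathway differed between its own members. ARPP19, which MASTL phosphorylates to inhibit the phosphatase, fell by 1.64 (standard error 0.15) on the log2 scale, with an adjusted p of 0.0499 in limma. This lay at the threshold of 0.05. The adjustment gave the same value to all 49 probes that passed, so it does not single out ARPP19. An adjusted p under 0.05 was lost with any 1 of the 6 arrays left out and with the slide as a block. ARPP19 still passed p under 0.01 and 2-fold with the block. Its within-slide differences were -1.69, -1.61 and -1.63, closer to each other than those of any of the 6 kinases measured on all slides. ENSA, the related MASTL substrate, had 0.49 (standard error 0.19), the highest value of that list, and the 4 phosphatase subunits had -0.29 to 0.24.

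Relatives of the 9 kinases by family had values on both sides of 0, with a median of 0.28. Of 15 measured relatives none was lower past the threshold and 1 was higher. At an unadjusted p under 0.05 in limma NEK6 and VRK2 were lower, with -0.42 and -0.57, against 6.43% of all probes. PLK2, NEK4, NEK8, NEK11 and NEK7 were higher, the first 4 with 0.53, 0.69, 0.74 and 0.67, against 7.37% of all probes. NEK7, a relative of NEK2 that acts at spindle poles and in the inflammasome, rose by 1.97 (standard error 0.31) on the log2 scale. AURKC, the germline Aurora kinase, had -0.09, and PLK3 had -0.06. PLK5 did not rise well above background on any of the arrays. The difference between the relatives and the 9 kinases was not tested.

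Of 11 transcriptional regulators of mitotic genes, 2 fell past the threshold, and the median was 0.03. FOXM1 had the lowest value, -1.19 (standard error 0.25), and LIN9, a MuvB subunit, had -1.11 (standard error 0.19). MYBL2 had -0.92 and did not pass. With the slide as a block LIN9 passed and FOXM1 did not. None of the 11 passed without si-C1GALT1-3 replicate 3, and 1 did when si-Control replicate 2 or 3 or si-C1GALT1-3 replicate 1 was left out. The other MuvB subunits LIN37, LIN52, LIN54 and RBBP4 had 0.03, 0.91, -0.65 and 0.27, and LIN52 was well above background on 1 of 2 control arrays. None of 8 reference genes (ACTB, GAPDH, TBP, HPRT1, PPIA, RPLP0, GUSB and PGK1) passed in limma's test, at p under 0.01 or at p under 0.05. Their log2 fold changes ran from -0.25 for HPRT1 to 0.23 for TBP.

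The genes outside these lists whose values followed the kinases most closely were found from the 6 kinases with values on all arrays. Their log2 signals were centred on the mean over the arrays and averaged, and 22058 other named probes were ranked by their mean absolute difference from that profile. CCNB2, a cyclin of CDK1, differed by 0.03 over 5 arrays, UBE2C, an enzyme of the anaphase-promoting complex, by 0.05, DDIAS by 0.06, SGO2, which protects centromeric cohesin, by 0.07, and MCUB by 0.07. The 6 kinases themselves differed from their own mean by 0.11 to 0.20, and the median over all candidates was 0.63. Because the 5 genes were picked as the nearest of 22058, their smaller differences than those of the kinases carry no weight. The study names 3 of these 5 genes, and their likeness rests on 6 arrays in 2 groups.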

How the data were processed

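Gene expression was measured on 6 single-colour Agilent arrays, 3 per group. Per the file headers and the submitters' processing notes, the authors deposited the output of Agilent Feature Extraction version 10.5.1.1. The deposited values are fluorescence intensity per spot, corrected for background and trends within the array and not normalized between arrays. A series table deposited by the authors holds background-subtracted intensity and was used only as an alternative. Control spots, spots marked as outliers (100 to 424 per array) and, on si-Control replicate 2, spots in rows 113 to 288 and columns 59 to 115 (9712 gene spots) were set to missing. Processed intensities were log2-transformed and quantile normalized, and the mean was taken over spots of the same probe. A linear model with 1 coefficient per group was fitted to each probe with limma (version 3.58.1, R version 4.3.3) using lmFit and eBayes, with Benjamini-Hochberg adjustment over 58195 probes. A gene with several probes was read from its brightest one. Probes were named through RefSeq genes of GRCh38.p14, while the arrays' design names hg19, so no probe coordinates are given.

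Named genes are the 9 kinases, C1GALT1, the highest and lowest value and each gene past the threshold of every list, and the 5 nearest profiles. Other genes named, such as BUB3, INCENP, PKMYT1 and MYBL2, were chosen after their values were seen. The kinases and lists were chosen with earlier results of these data known. The fit was tested on simulated data. Same-numbered samples share a slide by the file headers, and their deviations from the group means correlated by 0.198, 0.215 and 0.329 over 48794 probes, so the slide was run as a block.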

Additional observations from a re-analysis of the deposited data

How the results depend on the processing

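All 9 kinases had lower values under each alternative except with the low-signal region kept, where PLK4, BUB1B and MASTL had 0.27, 0.93 and 1.71, by construction through the dim spots of si-Control replicate 2, and BUB1 had -1.50 and lost its call. The number of kinases past p under 0.01 and 2-fold was 4, and it was 1 without normalization between arrays and 2 with the replicate block, with an unmoderated t-test on each probe (a test that the study's methods state for other assays and not for the arrays) and with the series table. The share of all probes lower past this threshold was 0.991%, and it was 0.507%, 1.02%, 0.577% and 0.754% in these 4 settings, in that order. AURKB lost its call in those 4 settings, with log2 fold changes of -1.09, -1.19, -1.19 and -1.14, and so did BUB1, with -1.27, -1.39, -1.39 and -1.46. VRK1 lost its call without normalization, with -1.37. NEK2 passed with normexp, with -1.03, and C1GALT1 with dim probes left out, with -1.0003. TTK and VRK1 had an adjusted p under 0.05 in limma with normexp (0.0366 and 0.0399) and with dim probes left out (0.0325 and 0.0444). The cause of these changes was not tested.

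With 1 array left out at a time, 2 to 5 kinases passed, while 0.82% to 1.32% of all probes were lower past the threshold. Log2 fold changes then ran from -1.39 to -0.87 for AURKB, from -1.61 to -1.08 for BUB1, from -1.27 to -0.79 for AURKA and from -1.22 to -0.72 for NEK2. Genes passing ran from 0 to 1 among the partners of PLK4, from 0 to 4 among the other mitotic kinases and from 0 to 3 among the transcriptional regulators. Without normalization 1 Aurora partner, 1 spindle checkpoint partner, 1 other mitotic kinase and 0 regulators passed. With the replicate block 1 Aurora partner and 1 regulator passed. Over all lists 11 of the 16 genes kept their call with the block, BIRC5, TPX2, CDK1, MELK and FOXM1 lost theirs, and CIT and NDC80 gained one. With the unmoderated t-test 1 substrate, 2 other mitotic kinases and 1 regulator passed, and 1 regulator passed with the series table and with each gene read from its median probe.

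Over all probes, 577 were lower and 961 higher past the threshold, so 37.5% of the calls were lower. The unmoderated t-test gave 336 and 560. Keeping the region gave 706 and 474, or 59.8% lower, and no normalization gave 295 and 783, or 27.4% lower. No probe had an adjusted p under 0.05 in limma in the 6 fits that left out an array and in 6 of the 11 other alternatives, against 49 probes as reported, 429 with normexp and 545 with dim probes left out. Scaling to the 75th percentile moved the median of all probes to -0.11 and that of the kinases to -1.05. Signal over background did not limit the 9 kinases, which were well above it on every measured array, while 3 arrays per group, and 2 control arrays for PLK4, BUB1B and MASTL, limit the precision.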
